A study of Mus musculus with 9 samples.

Results

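The miR-17-92 cluster was followed across 3 fat depots of mice fed a high fat diet (HFD). Its members were the 7 mature miRNAs named miR-17-5p, miR-17-3p, miR-18a-5p, miR-19a-3p, miR-19b-3p, miR-20a-5p and miR-92a-3p, chosen by name, out of 1251 mature miRNAs in the table. Small RNA was sequenced from interscapular brown fat (BAT), inguinal subcutaneous fat (SAT) and epididymal visceral fat (VAT), with 3 libraries per depot and 9 in all. All libraries came from male C57BL/6J mice without a transgene, aged 5 to 6 weeks at the start, on a diet with 45% of energy from fat, 20% from protein and 35% from carbohydrate for 11 weeks, and fasted for 4 hours before collection. No mice on another diet were compared, so the values describe depots of HFD fed mice only. The libraries are called by depot and by the number in their titles: BAT 12, 15 and 20, SAT 14, 19 and 20, and VAT 14, 17 and 20.

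The cluster is transcribed as a single long RNA that is cut into several hairpins, each of which can give a mature miRNA from its 5′ arm and from its 3′ arm. Myc and E2F factors are known to drive it, and it is best known for promoting proliferation and survival. In fat cell precursors it has been linked to the early proliferative phase of adipogenesis, and miR-92a is known as a repressor of blood vessel growth. A mature miRNA finds its targets mainly through its seed, bases 2 to 8, so members with the same seed are read as a family.

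All 7 members matched RefSeq entries on GRCm38. The mature sequences are shown 5′ to 3′ with the seed in capitals, because the members are compared below by their seeds.
miR-17-5p: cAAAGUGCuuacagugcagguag
miR-20a-5p: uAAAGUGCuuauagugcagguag
miR-18a-5p: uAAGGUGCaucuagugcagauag
miR-19a-3p: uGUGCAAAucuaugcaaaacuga
miR-19b-3p: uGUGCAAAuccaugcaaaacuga
miR-92a-3p: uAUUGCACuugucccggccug
miR-17-3p: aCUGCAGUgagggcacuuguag
Of these, miR-17-5p and miR-20a-5p share a seed and differ at 2 of 23 positions. The same holds for miR-19a-3p and miR-19b-3p, which differ at 1 of 23 positions. The seeds of miR-18a-5p, miR-92a-3p and miR-17-3p each occur once among the members, and miR-18a-5p differs from miR-17-5p at 6 of 23 positions.

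The 6 precursors lie on the plus strand of chromosome 14 between 115043671 and 115044506, a span of 836 bases. All of them are inside exon 2 of the noncoding gene Mir17hg, whose exon runs from 115043271 to 115046727 (GENCODE M21, GRCm38). The hairpins at the ends of the cluster are shown with both mature arms in capitals, since their arms are compared below.
Mir17: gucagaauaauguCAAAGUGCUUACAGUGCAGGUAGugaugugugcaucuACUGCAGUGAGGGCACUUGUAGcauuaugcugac
Mir92-1: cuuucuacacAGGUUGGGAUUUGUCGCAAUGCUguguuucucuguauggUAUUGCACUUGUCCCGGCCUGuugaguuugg
The Mir17 hairpin occupies chr14:115043671-115043754 and the Mir92-1 hairpin chr14:115044427-115044506. Mature miR-19b-3p and miR-92a-3p are also made, with the same bases, from Mir19b-2 and Mir92-2 in the miR-106a-363 cluster on chromosome X. Reads of these copies cannot be told apart, so both values are sums over 2 loci.

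The deposited values are log2 normalized values, and the lowest, 3.32, stands for a miRNA at the bottom of the table in that library. Read counts are not part of the table, so the depth of each single library is unknown and the spread between libraries is the measure of error. Above the lowest value were 255 to 273 miRNAs in the BAT libraries, 240 to 285 in SAT and 323 to 349 in VAT. Tests covered the 343 miRNAs that exceeded this lowest value in 3 or more libraries, and 5 of the 7 members were among them. The depot labels were checked against marker miRNAs: the summed brown adipocyte markers (4 of 4 detected in every library) had log2 values of 17.35 to 18.84 in BAT and 15.17 to 16.27 in SAT and VAT, and miR-196a-5p, a marker of posterior white fat, was at the lowest value in all BAT libraries, at 10.53 to 10.93 in SAT, and at 9.57 and 9.16 in VAT 17 and VAT 20 but only 3.96 in VAT 14. The 4 skeletal muscle markers summed to 17.21 in BAT 15, 18.68 in BAT 20 and 17.21 in VAT 20, against 9.90 to 12.60 in the other libraries. Those sums are mostly miR-133a-3p, and miR-1a-3p was above the lowest value in only 1 BAT library and 1 VAT library. SAT 20 stood apart in the 6 leukocyte markers, with a sum of 16.79 against 13.70 and 13.94 in the other SAT libraries, 14.32 to 14.76 in BAT and 13.04 to 14.33 in VAT. That sum is mostly miR-150-5p. Of the 5 leukocyte markers tested, 4 were higher and 1, miR-150-5p, was lower in VAT than in BAT, with a median log2 fold change of 3.19, and in SAT/BAT 1 was higher. The sixth, miR-155-5p, was at the lowest value everywhere, and miR-223-3p and miR-142-3p were so in all BAT libraries.

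Members of the cluster did not move together. In white fat miR-17-5p was about 5 to 7 times higher than in BAT, miR-19b-3p was highest in SAT, and miR-92a-3p, by far the most abundant member, was lower in VAT than in BAT. Between VAT and BAT 3 of the 7 members passed limma's test at an adjusted p under 0.05, 2 of them higher and 1 lower in VAT, where 66.2% of all 343 tested miRNAs passed. In SAT/BAT 2 members passed, both higher in SAT, against 40.5% of all tested miRNAs. In VAT/SAT 2 members passed, 1 higher and 1 lower in VAT, against 16.0% of all tested miRNAs. Read against these shares, the 3 of 5 tested members in VAT/BAT and 2 of 5 in SAT/BAT are near the background, and nothing is read from 2 of 5 in VAT/SAT. The VAT/BAT and SAT/BAT counts include miR-19b-3p, whose differences from BAT the filter built in. The VAT/SAT count includes miR-20a-5p, whose difference the filter also built in. The median log2 fold change of the 5 was 0.64, -0.40 and 0.36 in VAT/BAT, SAT/BAT and VAT/SAT, and that of all tested miRNAs was 0.40, 0.26 and 0.10.

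**Figure D1:**
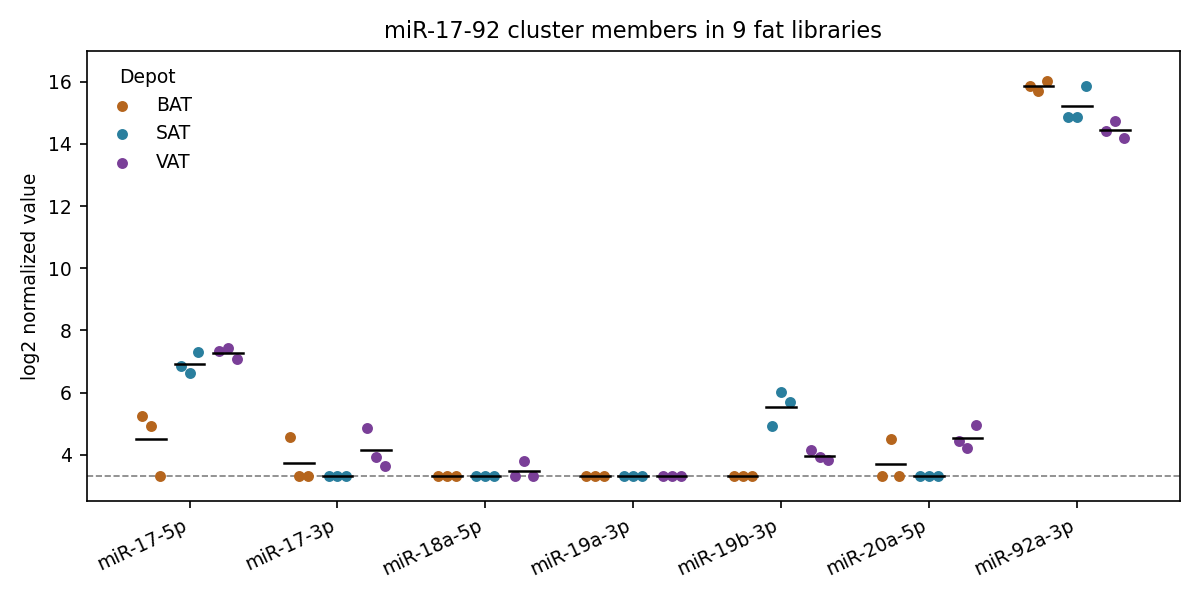
Log2 normalized value (vertical axis) of each of the 7 members (horizontal axis), with 1 point per library, black lines for depot means of 3 libraries, and a dashed line at the lowest value of the table, 3.32. The points of miR-92a-3p lie between 14.18 and 16.02 and all other members at or below 7.44.

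The highest member in every library was miR-92a-3p, which carries the seed shared with miR-25 and miR-32. Its log2 values were 15.87, 15.70 and 16.02 in BAT 12, 15 and 20, then 14.88, 14.88 and 15.87 in SAT 14, 19 and 20, and 14.41, 14.75 and 14.18 in VAT 14, 17 and 20. Every VAT library was below every BAT and every SAT library, while SAT 20 reached the BAT range. It ranked 10 to 12 among all miRNAs in the BAT libraries, 11 to 18 in SAT and 19 to 24 in VAT.

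The level of miR-92a-3p was 2.67-fold lower in VAT than in BAT (log2 fold change -1.42, SE 0.25, limma adjusted p = 0.003). SAT lay between them, with a log2 fold change of -0.65 against BAT (SE 0.32, 95% interval -1.48 to 0.19, adjusted p = 0.166). Between VAT and SAT the log2 fold change was -0.77 (95% interval -1.64 to 0.10, adjusted p = 0.179). The order of the means was therefore BAT, SAT, VAT, with only the ends of that order separated by the test. Without SAT 20, the library with the high leukocyte markers, the SAT/BAT log2 fold change of miR-92a-3p was -0.98 with a limma adjusted p of 0.0136. That was the only 1 of 16 alternatives to give a SAT/BAT call, and the adjusted p ran from 0.0136 to 0.761. In SAT 20 the lymphocyte miRNA miR-150-5p was at 16.72, against 13.56 and 13.84 in the other SAT libraries, and its part in the miR-92a-3p value was not tested.

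Red cell and endothelial miRNAs also differed between the depots. The 3 erythroid markers, 2 of them detected in every library, summed to 17.68 in each BAT library, 14.86 to 15.28 in SAT and 14.95 to 15.87 in VAT. Among them miR-486-5p was at 17.68 in every BAT library and at 14.81 to 15.78 in the SAT and VAT libraries, the same direction as miR-92a-3p. Against that direction, miR-451a was at 8.82 to 9.71 in BAT and at 11.18 to 11.81 in VAT. The third, miR-144-3p, was at the lowest value in all libraries. The part of these cells in the values of miR-92a-3p was not tested. In such bulk tissue fewer cells of a type and less RNA per cell cannot be told apart.

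The first miRNA of the cluster is miR-17-5p, whose seed is known to target cell cycle inhibitors. Its log2 values were 5.26, 4.92 and 3.32 in BAT 12, 15 and 20, the last being the lowest value of the table. In SAT 14, 19 and 20 they were 6.85, 6.64 and 7.30, and in VAT 14, 17 and 20 they were 7.35, 7.44 and 7.08. All 6 white fat libraries were above all 3 BAT libraries, and the SAT and VAT libraries overlapped.

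Compared with BAT, miR-17-5p was 6.91-fold higher in VAT (log2 fold change 2.79, SE 0.52, limma adjusted p = 0.00422). In SAT it was 5.39-fold higher than in BAT (log2 fold change 2.43, SE 0.58, adjusted p = 0.0265). Both folds depend on where the lowest value is set, because BAT 20 was at it. SAT and VAT were not separated, with a log2 fold change of 0.36 and a 95% interval of -0.19 to 0.91 (adjusted p = 0.301). BAT 20, where miR-17-5p was at the lowest value, was also the library with the highest muscle marker sum, mostly miR-133a-3p. Leaving it out gave log2 fold changes of 2.20 in VAT/BAT (adjusted p = 0.000981) and 1.84 in SAT/BAT (adjusted p = 0.0116). The SAT/BAT call was lost without BAT 15 or any of the SAT libraries, with adjusted p of 0.0544 without BAT 15, 0.081 without SAT 14, 0.0637 without SAT 19 and 0.0961 without SAT 20. The endothelial markers miR-126-3p and miR-126-5p, both detected in every library, moved the same way as miR-17-5p: their sum was 11.53 to 12.23 in BAT and 13.28 to 13.64 in white fat. So did 4 of the 5 tested leukocyte markers in VAT/BAT, while in SAT/BAT only 1, miR-223-3p, passed the test. Of these, miR-223-3p exceeded its BAT level at least 109-fold in VAT and at least 57-fold in SAT (limma adjusted p = 2.34e-05 and 6.69e-06). In VAT/BAT miR-142-5p was 16.2-fold and miR-146a-5p 9.1-fold higher (adjusted p = 0.00138 and 0.00103). The remaining tested marker, miR-150-5p, went the other way in VAT/BAT (log2 fold change -1.41, adjusted p = 0.0358). The leukocyte marker sum, mostly miR-150-5p, was 14.32 to 14.76 in BAT and 13.04 to 14.33 in VAT. The part of these cells in the miR-17-5p difference was not tested.

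The seed partner of miR-17-5p, miR-20a-5p, was scarce. It was at 4.51 in BAT 15 and at the lowest value in BAT 12, BAT 20 and all SAT libraries, and at 4.46, 4.21 and 4.97 in VAT 14, 17 and 20. All VAT libraries were above all SAT libraries, and 1 BAT library fell inside the VAT range. With at most 1 library of another depot above the lowest value, miR-20a-5p met the filter through VAT, so a VAT/SAT difference was built into its selection. The VAT level was at least 2.33-fold that of SAT (log2 fold change 1.22, SE 0.21, limma adjusted p = 0.0276). The VAT/BAT log2 fold change was 0.83 (95% interval -0.18 to 1.83, adjusted p = 0.12), and 1.22 without BAT 15 (adjusted p = 0.0194). In SAT/BAT it was -0.40 (95% interval -1.36 to 0.57, adjusted p = 0.42). The VAT/SAT call was lost when any of SAT 14, SAT 19, SAT 20, VAT 14 or VAT 20 was left out, with adjusted p of 0.0641, 0.0707, 0.0699, 0.0705 and 0.051.

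The members of the miR-19 family, known as a main growth-promoting part of the cluster, differed in whether they were seen at all. In all 9 libraries miR-19a-3p was at the lowest value, so it was not tested. All BAT libraries were at the lowest value for miR-19b-3p as well, but SAT 14, 19 and 20 were at 4.94, 6.01 and 5.71, and VAT 14, 17 and 20 at 4.16, 3.92 and 3.83. The 3 depots did not overlap for miR-19b-3p, in the order BAT, VAT, SAT.

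Each step of that order passed the test. Yet miR-19b-3p had met the filter through SAT and VAT alone, so its differences from BAT were built into its selection. SAT was at least 4.68-fold higher than BAT (log2 fold change 2.23, SE 0.30, limma adjusted p = 0.00482). VAT was at least 1.56-fold higher than BAT (log2 fold change 0.64, SE 0.21, adjusted p = 0.0353), and 2.99-fold lower than SAT (log2 fold change -1.58, SE 0.31, adjusted p = 0.0312). The VAT/BAT call of miR-19b-3p was lost without BAT 12, BAT 15 or VAT 17, with adjusted p of 0.0868, 0.0598 and 0.0522. The VAT/SAT call was lost without SAT 19, SAT 20, VAT 14, VAT 17 or VAT 20, with adjusted p of 0.0707, 0.09, 0.076, 0.0846 and 0.105.

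The 3′ arm miR-17-3p passed the test in no comparison. It was at 4.57 in BAT 12 and at the lowest value in BAT 15, BAT 20 and all SAT libraries, and at 4.87, 3.92 and 3.63 in VAT 14, 17 and 20. For miR-17-3p the VAT/BAT log2 fold change was 0.40 (95% interval -0.79 to 1.59, limma adjusted p = 0.49), -0.42 in SAT/BAT (95% interval -1.43 to 0.59, adjusted p = 0.42) and 0.82 in VAT/SAT (95% interval -0.07 to 1.71, adjusted p = 0.169). With a seed of its own, miR-18a-5p was above the lowest value in VAT 17 only, at 3.80, and was not tested. For miR-17-3p, miR-18a-5p and miR-20a-5p, values above the lowest were seen mostly in VAT, the depot with the most miRNAs above the lowest value. The part of that number in these values was not tested.

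**Figure D2:**
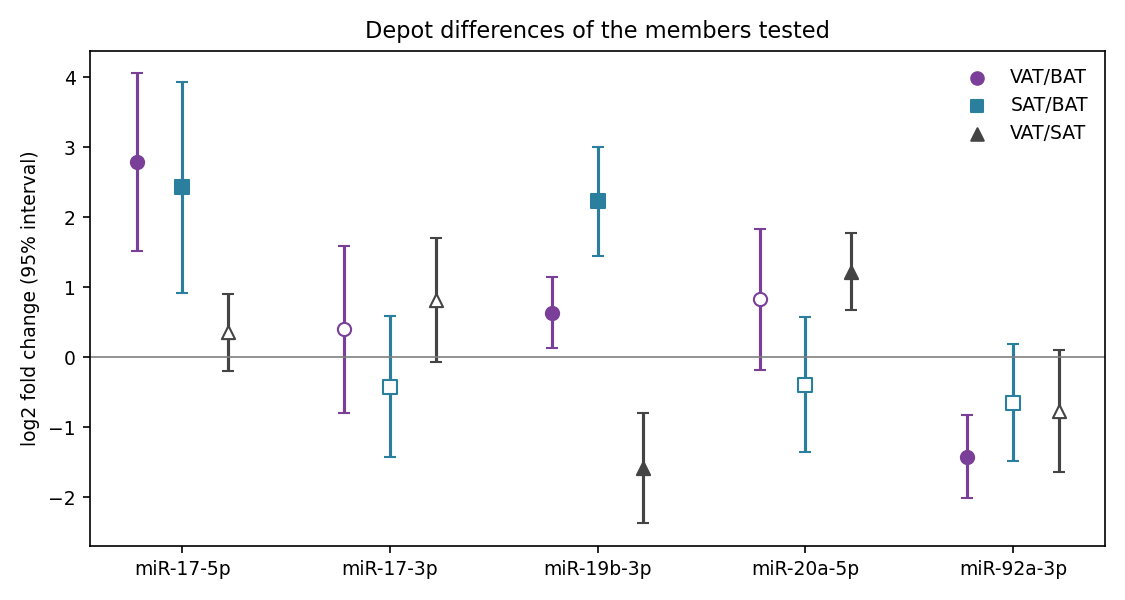
Log2 fold change between depots (vertical axis) of the 5 members tested (horizontal axis), as VAT/BAT (circles), SAT/BAT (squares) and VAT/SAT (triangles), with 95% intervals from limma and filled symbols at an adjusted p under 0.05. Filled symbols lie above 0 for miR-17-5p and below 0 for miR-92a-3p in VAT/BAT, at 2.79 and -1.42, and on both sides of 0 for miR-19b-3p.

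Whether members keep a fixed ratio was asked within libraries, which removes only a factor that multiplies all deposited values of a library alike. From miR-92a-3p to miR-17-5p, the ends of the cluster, the log2 difference was 10.61, 10.78 and 12.69 in BAT 12, 15 and 20. It was 8.04, 8.24 and 8.57 in SAT 14, 19 and 20, and 7.06, 7.31 and 7.10 in VAT 14, 17 and 20. All 6 white fat libraries were below all BAT libraries, with a mean difference of white fat less BAT of -3.64 (exact permutation test, two-sided p = 0.0238). The test took SAT and VAT as a single group, though all VAT libraries were also below all SAT libraries. It also took the libraries as independent, and whether those with the same title number share a mouse is not stated. That p is the smallest that 84 assignments of the libraries allow. Of the 3 such differences computed, the others rest on lowest values in BAT, so no adjusted p is given. In BAT 20, where miR-17-5p was at the lowest value, the difference is a lower limit, so its distance from the white fat libraries is not set too large.

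Between the arms of the Mir17 hairpin, miR-17-5p exceeded miR-17-3p by 0.69, 1.60 and 0.00 on the log2 scale in BAT 12, 15 and 20. The excess was 3.53, 3.32 and 3.98 in SAT 14, 19 and 20, and 2.48, 3.52 and 3.45 in VAT 14, 17 and 20. With miR-17-3p at the lowest value in BAT 15 and all SAT libraries, these excesses are lower limits, and in BAT 20, with both arms at the lowest value, the excess is unknown. Only BAT 12 among the BAT libraries had both arms above the lowest value, so the depots could not be tested for this difference.

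Between the seed partners, miR-17-5p exceeded miR-20a-5p on the log2 scale by 0.41 in BAT 15 and by 2.89, 3.23 and 2.11 in VAT 14, 17 and 20, the libraries with both above the lowest value. The excess was at least 1.94 in BAT 12 and at least 3.53, 3.32 and 3.98 in SAT 14, 19 and 20, and is unknown in BAT 20. This difference could not be tested between depots either.

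**Figure D3:**
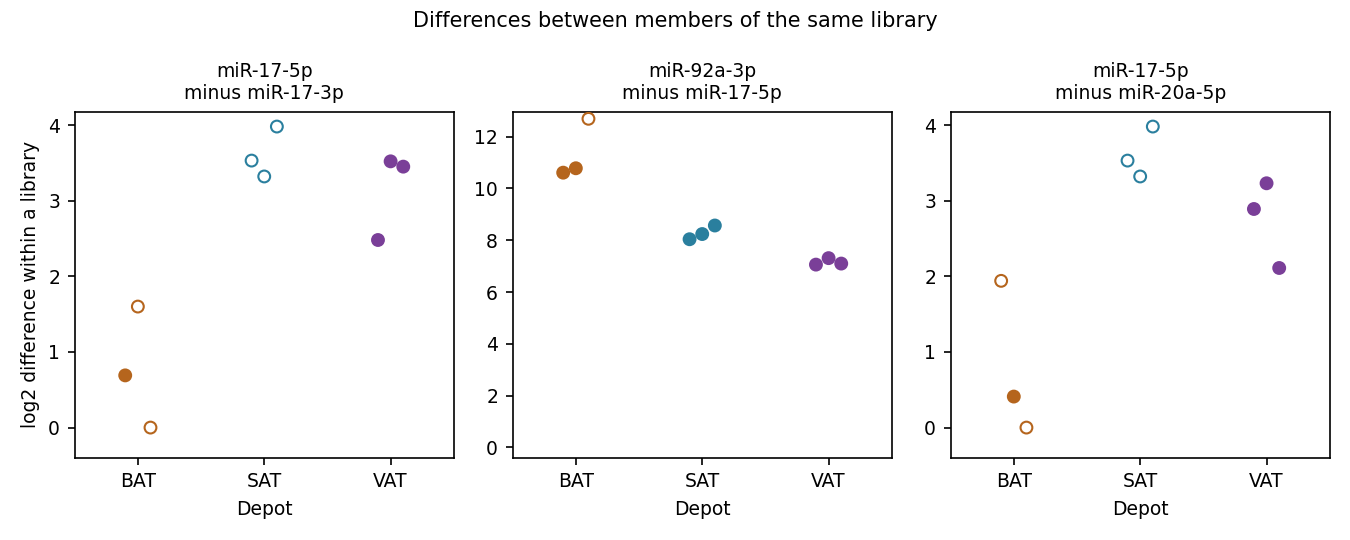
Log2 difference between members within the same library (vertical axis) by depot (horizontal axis), with 1 point per library, open where a member was at the lowest value of the table. In the middle panel the BAT points, at 10.61 or more, lie above the SAT and VAT points, at 8.57 or less; in the outer panels only 1 BAT point is filled, so the depots cannot be ordered there.

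The hairpin of miR-92a has a second arm, miR-92a-1-5p, which is made only from the chromosome 14 copy in this set of sequences. It was at 5.60, 5.32 and 5.76 in BAT 12, 15 and 20, at 7.08, 7.04 and 8.29 in SAT 14, 19 and 20, and at 6.64, 6.83 and 5.98 in VAT 14, 17 and 20. All 6 white fat libraries were above the BAT libraries, the opposite order from miR-92a-3p in VAT and BAT. It was 1.90-fold higher in VAT than in BAT (log2 fold change 0.92, SE 0.30, limma adjusted p = 0.0358) and 3.77-fold higher in SAT than in BAT (log2 fold change 1.91, SE 0.40, adjusted p = 0.0183). SAT 20 was the highest SAT library for both arms.

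Of the 5 other arms of the cluster, 2 were tested, and miR-92a-1-5p alone passed, in VAT/BAT and in SAT/BAT. The second, miR-18a-3p, was at 4.92 and 5.76 in BAT 12 and BAT 20, 4.55 in SAT 14 and 4.57 in VAT 17, and at the lowest value in the other libraries. Its VAT/BAT log2 fold change was -0.93 (95% interval -2.61 to 0.75, adjusted p = 0.264). The other arms, miR-19a-5p, miR-19b-1-5p and miR-20a-3p, were at the lowest value in every library.

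**Figure D4:**
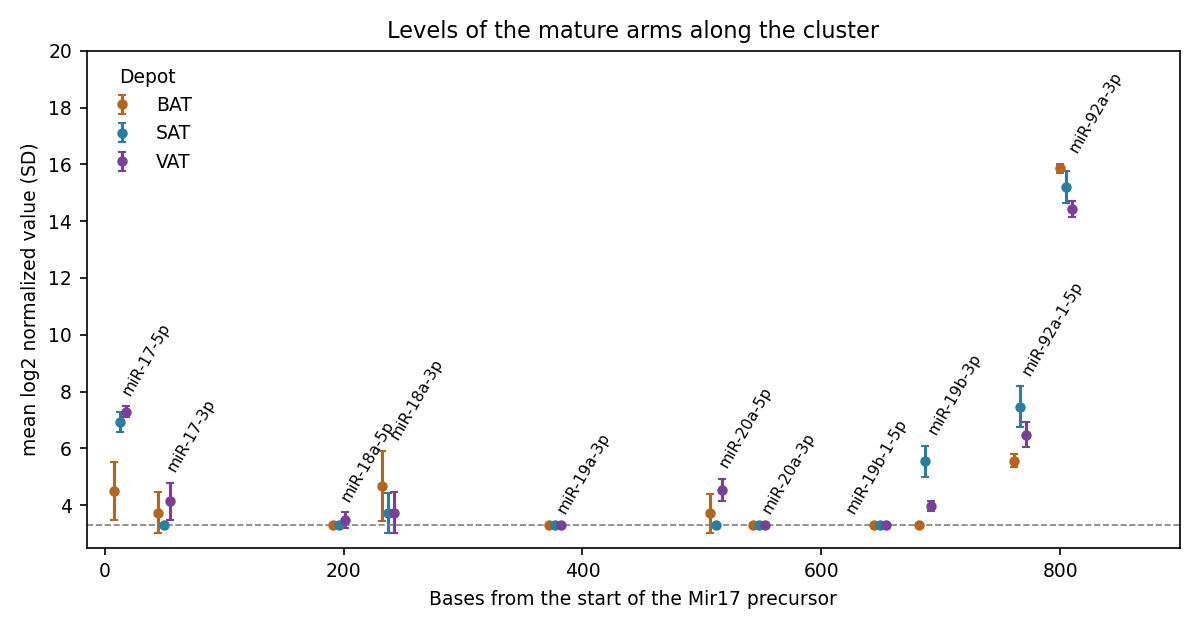
Mean log2 normalized value with SD over 3 libraries (vertical axis) of 11 mature arms against the distance of their first base from the start of the Mir17 precursor in bases (horizontal axis), by depot, with BAT and VAT points moved 5 bases aside and a dashed line at the lowest value of the table. The level follows no steady course along the cluster: miR-19a-3p, at 377 bases, is at the lowest value in every depot and miR-92a-3p, at 805 bases, has the highest mean in every depot.

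The miR-106a-363 cluster on chromosome X, a paralogue of miR-17-92, was almost unseen. Of its 10 mature miRNAs other than the shared miR-19b-3p and miR-92a-3p, 9 were at the lowest value in every library, and miR-363-3p was above it in VAT 14 only, at 3.83. None was tested. Reads with more than 1 match were shared in proportion by the authors, and miR-106a-5p differs from miR-17-5p at 1 of 23 positions, so a split of reads between them is uncertain.

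The miR-106b-25 cluster on chromosome 5, in an intron of Mcm7, carries the same seeds as miR-17-5p and miR-92a-3p. Its most abundant members are shown with the seed in capitals for comparison with the sequences above.
miR-93-5p: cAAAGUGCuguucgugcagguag
miR-25-3p: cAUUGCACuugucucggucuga
All 6 of its mature miRNAs were tested. In VAT/BAT 2 were higher and 2 lower, in SAT/BAT 2 were higher, and in VAT/SAT 1 was lower, where 66.2%, 40.5% and 16.0% of all tested miRNAs passed in either direction. The 4 of 6 in VAT/BAT and 2 of 6 in SAT/BAT are not read as a result about that cluster. With the seed of miR-17-5p, miR-93-5p was at 10.61, 10.74 and 9.97 in the BAT libraries, 12.12, 12.20 and 12.65 in SAT and 12.12, 12.12 and 11.94 in VAT. It was higher than in BAT by a log2 fold change of 1.62 in VAT (SE 0.27, limma adjusted p = 0.00279) and 1.88 in SAT (SE 0.27, adjusted p = 0.00555), as miR-17-5p was. With the same seed, miR-106b-5p did not pass, with a VAT/BAT log2 fold change of -0.44 (95% interval -1.16 to 0.29) and a SAT/BAT value of -1.04 (95% interval -3.02 to 0.94).

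Among miRNAs with the miR-92 seed the depots did not order alike. Values of miR-25-3p were 12.20, 12.34 and 11.40 in the BAT libraries, 13.09, 13.32 and 13.40 in those of SAT, and 12.81, 13.18 and 12.81 in those of VAT. Its log2 fold change against BAT was 0.96 in VAT (SE 0.32, limma adjusted p = 0.0386) and 1.29 in SAT (SE 0.29, adjusted p = 0.0222), opposite in sign to miR-92a-3p. By contrast miR-92b-3p, which differs from miR-92a-3p at 2 of 21 positions, was lower than in BAT by a log2 fold change of -1.84 in VAT (adjusted p = 0.000703) and -2.12 in SAT (adjusted p = 0.00617). Both miR-32-5p and miR-367-3p were at the lowest value in every library. Whether these fold changes differ from that of miR-92a-3p was not tested.

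**Figure D5:**
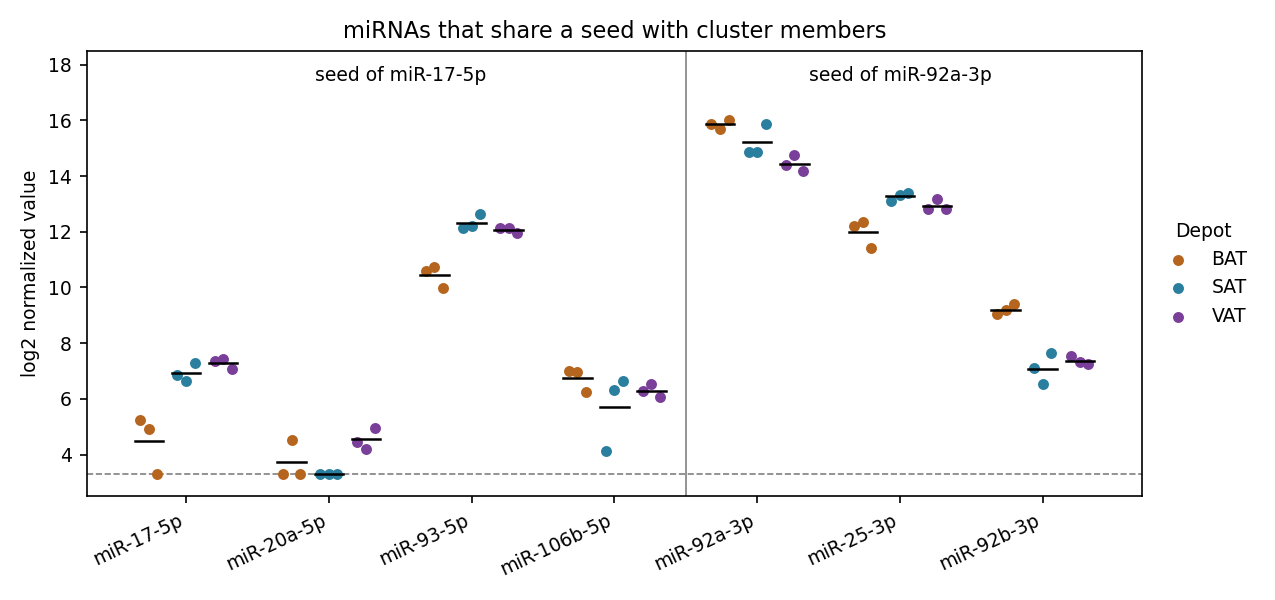
Log2 normalized value (vertical axis) of miRNAs that share the seed of miR-17-5p (left of the line) or of miR-92a-3p (right of the line), with 1 point per library, black lines for means of 3 libraries and a dashed line at the lowest value. In white fat miR-17-5p, miR-93-5p and miR-25-3p lie above BAT, and miR-92b-3p lies below it.

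Likeness of profiles was measured as the root mean square difference over the 9 libraries of log2 values, each miRNA less its own mean. Closest to miR-17-5p was miR-322-5p at 0.40, with depot means of 8.56, 10.75 and 10.81 in BAT, SAT and VAT. The nearest member to miR-17-5p was miR-19b-3p, at 1.13. For miR-92a-3p the closest was miR-1198-5p at 0.25, with depot means of 9.22, 8.91 and 7.86, and the nearest member was miR-17-3p at 0.97. The closest to miR-19b-3p was miR-188-5p (0.41), to miR-20a-5p miR-361-5p (0.32), and to miR-17-3p miR-299b-5p (0.43). Each of the 5 tested members thus had a miRNA from outside the cluster closer to it than any member, from a far larger number of candidates. The 5 miRNAs closest to the mean profile of the tested members were miR-29a-3p, miR-151-5p, miR-28a-3p, miR-30b-5p and miR-28a-5p, at 0.20 to 0.26.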

How the data were processed

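The authors aligned reads to precursors from miRBase and retained those on mature sequences. Reads with several matches were split in proportion, divided by the usable reads and raised by 40 counts. Their genome build is mm10 per the labels. The deposited values are log2 values, from 3.32 (the log2 of 10) to 18.67, and libraries nearly share their values at equal ranks: at 80 of the 100 highest ranks they differed by less than 0.05. The lowest value of 10 and the 40 counts do not agree, and neither that offset nor the step that made ranks equal is explained in the sources used here. Folds of members near the lowest value depend on the offset. The paper gives only an approximate number of mapped reads per sample. The depth of each single library is unknown, since the table holds no counts.

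Values were used as deposited. The 343 of 1251 miRNAs that exceeded the lowest value in 3 or more of 9 libraries were fitted pairwise with limma 3.58.1 (R 4.3.3; lmFit and eBayes, two-sided, Benjamini-Hochberg over the 343). The fit was tested on simulated data with changes only in miRNAs whose mean was above the median. Of the members only miR-92a-3p is among these, so changes near the lowest value were not simulated. Differences within libraries used exact permutation tests (scipy 1.17.1), and 2 of the 3 planned tests were dropped because their members were at the lowest value in most BAT libraries. Folds against a depot entirely at the lowest value are lower bounds. The named miRNAs were the members, the other arms, the miR-106a-363 and miR-106b-25 clusters, the miR-92 seed family, miR-191-5p, cell type markers and the profiles nearest to the members. Members and lists were chosen with earlier results of these data known.

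The labels name 3 samples per depot without a batch and do not tie the libraries to mice, so p-values measure the spread between these libraries. Some title numbers are shared by depots, and whether those libraries come from the same mouse is not stated. They were not paired in the main fit. Alternatives were other offsets, filters, scalings, fits and blocks, and each library left out. The fit of all 9 libraries with a block was added after seeing the data.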

Additional observations from a re-analysis of the deposited data

How the results depend on the processing

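Each log2 fold change of a tested member kept its sign or fell to 0 under the alternatives. For miR-92a-3p in VAT/BAT the call held in 16 of 16 alternatives (adjusted p 0.00144 to 0.0227). For miR-19b-3p in SAT/BAT it held in 15 of 15 (0.000336 to 0.0404), a difference that the filter built into its selection. For miR-17-5p it held in 14 of 15 in VAT/BAT (0.000981 to 0.0767) and 8 of 15 in SAT/BAT (0.00285 to 0.171). For miR-19b-3p it held in 7 of 15 in VAT/BAT (0.000689 to 0.265) and 6 of 16 in VAT/SAT (0.0146 to 0.234), and for miR-20a-5p in 4 of 16 in VAT/SAT (0.00816 to 0.183). The causes of the losses were not tested.

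Without the filter calls were lost for miR-17-5p (2.79 in VAT/BAT, 2.43 in SAT/BAT), and for miR-19b-3p (-1.58) and miR-20a-5p (1.22) in VAT/SAT, where 1251 miRNAs entered the adjustment. With the lowest value subtracted and 1 added, miR-17-5p was 4.11 in VAT/BAT (limma adjusted p = 0.0414) and 3.72 in SAT/BAT (adjusted p = 0.109). In VAT/BAT miR-19b-3p was then 2.71 (0.64 as deposited). With a further 40 added, miR-17-5p in VAT/BAT was 1.60 (limma adjusted p = 0.00133). A further 40 added gave miR-19b-3p 0.16 in VAT/BAT and -0.66 in VAT/SAT and miR-20a-5p 0.35 in VAT/SAT, none called. Relative to miR-191-5p these were 0.65, -1.41 and 1.40, none called. Without moderation miR-19b-3p (-1.58) and miR-20a-5p (1.22) were not called in VAT/SAT, and in a fit of all 9 libraries miR-19b-3p in VAT/BAT (0.65) and miR-20a-5p in VAT/SAT (1.22) were not. Members called fell to 1 in VAT/BAT, 0 in SAT/BAT and 0 in VAT/SAT among the 172 miRNAs with the higher mean, which hold miR-92a-3p as the only member. In SAT/BAT 1 member was called with the lowest value subtracted and 1 without the filter. In VAT/SAT 0 were called with a further 40 added, without the filter, relative to miR-191-5p or without moderation, and 1 in the fit of all 9.

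Libraries with the same title number gave correlations of 0.107, 0.27, -0.052 and -0.139, and those with other numbers gave -0.48 to 0.358. These values cannot decide whether libraries share mice, and the title numbers were not taken as pairs in the main fit. As a replicate block in VAT/SAT they left 2 members called, as without it. For VAT/BAT and SAT/BAT, which share 1 number, the block could not be fitted pairwise. In all 9 libraries with this block 2, 2 and 1 members were called, with miR-19b-3p in VAT/BAT (0.65, adjusted p = 0.0809) and miR-20a-5p in VAT/SAT (1.23, adjusted p = 0.0638) lost. With the library order as replicate block 1 member was called in SAT/BAT and 0 in VAT/SAT, where limma called 0 of 343 miRNAs with 105 at an unadjusted p under 0.05. Lost were miR-17-5p in SAT/BAT (2.43), miR-19b-3p in VAT/BAT (0.65) and VAT/SAT (-1.58), and miR-20a-5p in VAT/SAT (1.22).

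With each library left out in turn, 2 to 3 members were called in VAT/BAT, 1 to 2 in SAT/BAT and 0 to 1 in VAT/SAT. In VAT/BAT log2 fold changes ran from 0.55 to 0.72 for miR-19b-3p and 0.62 to 1.22 for miR-20a-5p. In SAT/BAT they ran from 1.84 to 2.81 for miR-17-5p and from -0.98 to -0.48 for miR-92a-3p. In VAT/SAT they ran from -1.89 to -1.35 for miR-19b-3p and 1.01 to 1.39 for miR-20a-5p. The VAT/SAT comparison had 0 calls among 343 miRNAs without SAT 19 (104 at an unadjusted p under 0.05). The differences within libraries ran from 2.24 to 3.04 for the Mir17 arms, from -4.02 to -2.98 for miR-92a-3p less miR-17-5p and from 2.0 to 2.97 for miR-17-5p less miR-20a-5p. Without a BAT library the exact permutation p of miR-92a-3p less miR-17-5p was 0.0714, the smallest that design allows. The other differences rest on lowest values in BAT and carry no test. With the lowest value subtracted the last was 3.27. Of the 5 miRNAs nearest to the members' mean profile, 4 were shared with a mean absolute difference and 5 relative to miR-191-5p.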
